A study of Mus musculus with 9 samples.

Results

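The comparison was between 3 arrays of cultured mouse granulosa cells labelled as infected with an adenovirus that overexpresses WNT4 and 3 labelled as infected with an adenovirus that expresses Cre recombinase. Its members were chosen by their titles and make up 6 of the 9 arrays of the study. The remaining 3, infected with an eGFP adenovirus as the control, entered no fit described below, and their levels are given as the background measured in the same way. Cells of all 3 groups came from mice 20 to 26 days old of various genotypes, 48 h after equine chorionic gonadotrophin, the hormone that drives follicle growth. They were collected by needle puncture, attached overnight in medium with little serum, and infected for 24 h in serum-free medium at a multiplicity of infection of about 50. Cre cuts DNA between loxP sites, here in a floxed Ctnnb1 gene, which encodes beta-catenin. The genotype of the cells of each group, the promoter in each virus and the shape of the recombined allele are not given in the sources used here. Both groups carried a virus, and Cre was itself a treatment. The fit of these 6 arrays by itself therefore does not tell a change after WNT4 from a change after Cre, and the GFP levels are given beside the values, with no test. The question was which genes part the 2 treatments.

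Granulosa cells surround the oocyte, answer follicle-stimulating hormone with growth and oestrogen synthesis, and turn into progesterone-making luteal cells after the ovulatory surge of luteinising hormone. WNT4 is a secreted ligand. In canonical WNT signalling a ligand at its Frizzled receptor stops the destruction complex of Axin and APC from degrading beta-catenin, which then enters the nucleus and acts with TCF/LEF factors on genes such as Axin2. Secreted proteins fold in the endoplasmic reticulum (ER). Misfolded protein there sets off the unfolded protein response. Its separate branches through the factors ATF6 and XBP1 act on chaperone genes, among other sites at a promoter sequence called the ER stress response element. Another branch, through ATF4 and CHOP, acts on amino acid and cell death genes.

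No probe set passed the test between the arrays labelled WNT4 and those labelled Cre after correction over all probe sets. The list with the largest median difference was that of the ER chaperones and ER-associated degradation, of which all 29 measured genes had a higher mean on the arrays labelled WNT4, with a median log2 difference of 0.88 (0.61 after quantile normalization, with 28 of 29 above 0). Genes of the ATF4 and CHOP branch, interferon-stimulated genes, antigen-processing genes, p53-linked genes such as Cdkn1a and Polk, and luteal genes were also mostly higher there. Among all genes with a mean of at least 6 log2 units, 72.1% had a difference above 0. The steroidogenesis list was near that share, with 12 of 16 above 0, and its median was 0.02 after quantile normalization. Wnt4 itself, Igf1, Krt20, Pcdh8, Bmp4, Bmp2 and Axin2 had lower means. Relative to the mean of the Cre arrays, the ER, ATF4 and interferon lists were higher on WNT4 arrays 1 and 3 than on WNT4 array 2. On the interferon list Cre 3 was high too, at 0.36 against -0.12 on Cre 1 and -0.24 on Cre 2, with WNT4 3 at 0.63.

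The ER stress response element is shown first, because it is what a group of the higher genes share in their promoters. Promoters were taken from RefSeq (GRCm38.p6), and the motif searched was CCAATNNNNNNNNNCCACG, on both strands, in the 250 bases before to 50 bases after each gene start. It was chosen after the values of these genes had been seen. It contains the shorter CCAAT box. It lay in 39 of all 32851 promoters of the table (0.119%) and in 9 of the 26 promoters found for 25 of the 29 ER genes (34.6%). The 250 bases before the start are given for 5 genes of that kind, 5′ to 3′ on the gene's strand and with the motif in capitals. Hspa5 encodes the chaperone BiP, Creld2 a secreted ER stress protein, Pdia6 a disulfide isomerase, and Syvn1 the ubiquitin ligase that marks misfolded ER proteins. Ero1b, an oxidase that recharges disulfide isomerases, was not on the ER list and is shown because its promoter holds the motif too.
Hspa5, chr2:34771840-34772089, plus strand: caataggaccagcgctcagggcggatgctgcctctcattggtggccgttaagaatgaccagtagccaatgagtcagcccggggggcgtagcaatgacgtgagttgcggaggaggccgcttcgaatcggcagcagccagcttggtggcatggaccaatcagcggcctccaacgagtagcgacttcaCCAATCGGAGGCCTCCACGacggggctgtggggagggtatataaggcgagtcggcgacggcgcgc
Creld2, chr15:88819396-88819645, plus strand: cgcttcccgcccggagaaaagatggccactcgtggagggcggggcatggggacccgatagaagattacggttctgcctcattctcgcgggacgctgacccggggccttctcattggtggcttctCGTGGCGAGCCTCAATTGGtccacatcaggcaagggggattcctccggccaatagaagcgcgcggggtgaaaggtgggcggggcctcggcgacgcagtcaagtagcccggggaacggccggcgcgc
Pdia6, chr12:17266339-17266588, plus strand: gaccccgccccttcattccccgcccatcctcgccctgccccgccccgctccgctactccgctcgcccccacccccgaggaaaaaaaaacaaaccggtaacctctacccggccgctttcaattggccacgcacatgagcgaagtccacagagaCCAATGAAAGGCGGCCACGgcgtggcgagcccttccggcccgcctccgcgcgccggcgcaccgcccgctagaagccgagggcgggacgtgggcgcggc
Syvn1, chr19:6046326-6046575, plus strand: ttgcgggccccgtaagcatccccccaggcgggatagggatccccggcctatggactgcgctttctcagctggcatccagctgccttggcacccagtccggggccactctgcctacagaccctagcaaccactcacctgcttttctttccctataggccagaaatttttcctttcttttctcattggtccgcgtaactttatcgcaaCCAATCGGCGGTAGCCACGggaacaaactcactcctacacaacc
Ero1b, chr13:12565633-12565882, plus strand: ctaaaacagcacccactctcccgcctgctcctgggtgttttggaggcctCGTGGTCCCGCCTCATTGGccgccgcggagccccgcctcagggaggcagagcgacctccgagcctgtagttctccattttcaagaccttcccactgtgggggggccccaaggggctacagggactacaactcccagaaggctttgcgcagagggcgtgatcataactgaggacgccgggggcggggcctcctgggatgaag
The motif began 65 bases upstream of the start of Hspa5, 98 upstream of Pdia6 and 44 upstream of Syvn1, on the gene's strand. It began 126 bases upstream of Creld2 and 201 upstream of Ero1b, on the opposite strand, so that its letters read there as the reverse complement. On the arrays, 20 genes with this motif in the promoter window were measured. Their median log2 difference was 0.48, and 19 of the 20 were higher on the arrays labelled WNT4. Of all genes 61.0% were higher there, and 72.1% of those with a mean of at least 6 log2 units. The 9 on the ER list, all with such a mean, had a median of 0.97, and the whole ER list had 0.88. The 11 others, 4 of them with such a mean, had a median of 0.10. The median was 0.05 over all 18193 genes and 0.13 over those with a mean of at least 6. A match describes the letters only and is no evidence of binding.

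The 6 arrays did not sort by treatment. Array medians lay between 5.44 and 5.50 on the log2 scale of the deposited values, and upper quartiles between 7.74 and 7.84 in the Cre group, with 8.0, 7.78 and 7.87 on WNT4 arrays 1 to 3. Precision is limited by having 3 arrays a group. The replicates are called biological in the labels, with no animals or cultures named, so p-values measure only the spread between these samples. Over the 45037 probe sets, the treatment took 19.0% of the variance between the 6 arrays, with 1 of the 5 degrees of freedom (20.0%), and the replicate number took 57.9%. The first principal component (43.1% of the variance) set both arrays numbered 3 apart, at scores of 46.9 and 49.6 against -32.2 to -18.4 for the other 4. The second (30.1%) had WNT4 1 at 53.7 and WNT4 3 at 20.5, with WNT4 2 at -14.8 among the Cre arrays (-33.3 to -13.0). WNT4 2 and Cre 2 correlated at 0.994, WNT4 3 and Cre 3 at 0.995, and WNT4 1 and Cre 1 at 0.986. Between WNT4 1 and Cre 1, 1265 probe sets were over 1 log2 unit higher and 250 lower, against 19 and 123 between WNT4 2 and Cre 2, and 110 and 41 between WNT4 3 and Cre 3.

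**Figure D1:**
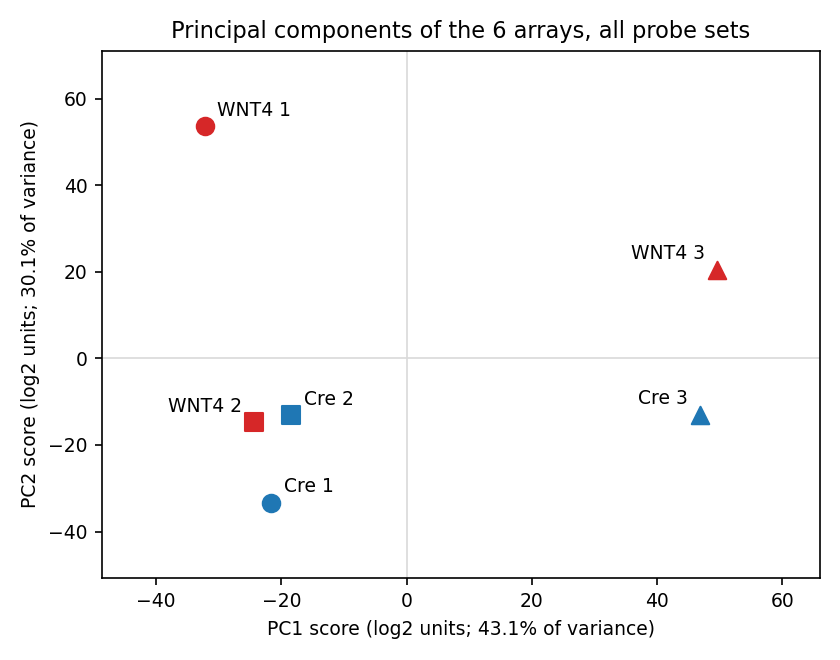
Scores of the 6 arrays on the first and second principal components of 45037 probe sets, in log2 units; colours stand for the treatment and point shapes for the replicate number. Cre 3 and WNT4 3 sit together on the right at 46.9 and 49.6, and WNT4 2 sits among the Cre arrays, away from WNT4 1 at the top.

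At an adjusted p under 0.05 (limma, Benjamini-Hochberg), 0 of 45037 probe sets were called (0.0%), and the lowest adjusted p was 0.95. At an unadjusted p under 0.05, 2149 passed (4.77%), close to the 2251.8 that 5% of the probe sets would give. Of them 1645 were higher on the arrays labelled WNT4 (3.65% of all) and 504 lower (1.12%). The share of higher ones was 76.5% on the deposited values, 46.1% after quantile normalization and 46.9% after centring on the 75th percentile, so that the surplus of higher probe sets came and went with the scaling. With the replicate number as a block, 3707 passed at an unadjusted p under 0.05 and still 0 after correction. The 3 arrays of one group lay wholly above or wholly below the other 3 for 3706 probe sets (8.23%), 2422 higher (5.38%) and 1284 lower (2.85%) on the arrays labelled WNT4. For 3 arrays against 3 chance would give 10%. The direction was the same in all 3 numbered pairs for 12037 (26.7%), where chance would give 25%.

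For the gene lists below, a gene's value is that of its brightest probe set, and counts refer to unadjusted p under 0.05 in limma, since no gene passed after correction. Over all 18193 genes, 4.97% passed as higher on the arrays labelled WNT4 and 1.1% as lower, 6.57% lay wholly higher and 2.41% wholly lower, and 61.0% had a difference above 0. Over the 10536 genes with a mean of at least 6 log2 units, which most list members had, these shares were 8.24%, 1.09%, 9.76%, 1.54% and 72.1%, with a median difference of 0.13. That median was -0.01 after quantile normalization and 0.03 after centring on the 75th percentile. The share of all 18193 genes that passed as higher also moved with the setting. With 1 array left out it ran from 2.15%, without WNT4 1, to 10.3%, without WNT4 2. It was 8.85% with the replicate block, 2.58% without both arrays numbered 3 and 1.7% after quantile normalization. List counts under those settings stand beside these shares. Differences are WNT4 minus Cre on the log2 scale, with the standard error of the fit. In these cultures fewer cells of a type and less RNA per cell cannot be told apart.

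Wnt4, the gene the virus was meant to raise, went against the labels in the comparison with Cre. One probe set, 1450782_at, read 11.25, 10.47 and 10.18 on Cre arrays 1 to 3 and 8.97, 9.89 and 9.16 on WNT4 arrays 1 to 3. The arrays labelled WNT4 were all lower than the arrays labelled Cre, and lay at the level of the GFP arrays (9.93, 9.16 and 9.13). The difference was -1.30 ± 0.34 (unadjusted p = 0.0085), and it was -1.11 without WNT4 1. A second probe set, 1441687_at, read 10.01, 9.81 and 9.05 in the Cre group and 9.91, 9.62 and 8.36 in the WNT4 group, so the groups overlapped (difference -0.33 ± 0.45). With GFP it read 9.13, 7.57 and 8.27. By this probe set the WNT4 mean of 9.29 was thus above the GFP mean of 8.32, unlike by the first. The sources used here do not say whether either probe set reads the transcript made from the virus. Ctnnb1, the target of Cre, read 12.96, 13.55 and 13.33 on the arrays labelled Cre and 14.08, 13.44 and 13.80 on those labelled WNT4, against 13.40, 12.92 and 13.42 with GFP. The difference of 0.49 ± 0.21 did not pass, it fell to 0.10 after quantile normalization, and the other probe sets of Ctnnb1 gave 0.33 and 0.38. No position for these probe sets relative to the floxed exons was used, so their level does not check recombination. Every direction given here is therefore between the libraries labelled WNT4 and the libraries labelled Cre.

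Several genes with small spread within each group had been called against GFP in earlier results on these data. Polk, a polymerase of translesion DNA synthesis, had the lowest p of all probe sets (0.0005). It read 8.60, 8.74 and 8.81 on the Cre arrays and 9.55, 9.27 and 9.49 on the WNT4 arrays, with 8.47, 8.16 and 8.23 under GFP. The groups did not overlap, and the difference was 0.72 ± 0.11 (0.66 without WNT4 1, 0.56 after quantile normalization). Ak1, adenylate kinase of the cytosol, read 9.75, 9.58 and 9.48 against 10.34, 10.21 and 10.15, a difference of 0.63 ± 0.10. Its GFP arrays were lower than both, at 9.15, 8.89 and 9.05. Cdkn1a, the p21 inhibitor of cyclin-dependent kinases, read 12.67, 12.83 and 13.10 against 13.82, 13.36 and 13.64, and 12.26, 12.03 and 11.90 with GFP. Its difference was 0.74 ± 0.16 (unadjusted p = 0.0033, and 0.41 after quantile normalization), and its other probe set gave 1.10. Krt20, an epithelial keratin, ran the other way, at 6.20, 6.56 and 6.56 on the Cre arrays and 5.51, 5.26 and 5.82 on the WNT4 arrays (difference -0.91 ± 0.18, unadjusted p = 0.0018). It was highest with GFP, at 7.44, 7.46 and 7.80. Polk, Ak1, Cdkn1a, Krt20, Mapkapk3 and Exoc4 were on the list of names because of those calls. Of these 6, Mapkapk3, a kinase downstream of p38, differed by 0.34 ± 0.08 (0.22 after quantile normalization). Exoc4, a subunit of the exocyst that tethers secretory vesicles, differed by 0.30 ± 0.09 (0.09 after quantile normalization), and its 4 other probe sets gave -0.09 to 0.55. By its brightest probe set, each of the 6 had groups that did not overlap, with Cre between GFP and WNT4 in the group means. The earlier calls shared the WNT4 or the Cre arrays, so their low p here is not independent of them, and none passed after correction. Parm1, a mucin-like membrane protein, was 0.62 ± 0.12 higher on the WNT4 arrays (unadjusted p = 0.0019, and 0.37 after quantile normalization). N4bp1, an RNA-cutting inhibitor of NF-kappaB signals, was chosen after its values were seen and was 0.70 ± 0.21 higher.

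Of the 33 measured p53 and DNA damage genes, 28 had a difference above 0, with a median of 0.34 (0.17 after quantile normalization). The count at an unadjusted p under 0.05 was 8 higher and 0 lower, and 7 lay wholly higher. The share higher was 24.2%, against 4.97% of all genes and 8.24% of those with a mean of at least 6, which 29 of the 33 had. The list mean, relative to the mean of the Cre arrays, was 0.55, 0.15 and 0.32 on WNT4 arrays 1 to 3, -0.01, -0.01 and 0.02 on Cre arrays 1 to 3, and -0.32 to -0.18 with GFP. All 3 WNT4 arrays were thus above all Cre arrays. Besides Polk and Cdkn1a, its members with the lowest p included Aen, an apoptosis-linked exonuclease. Aen read 10.58, 10.41 and 10.22 in the Cre group and 11.41, 10.87 and 11 in the WNT4 group (difference 0.69 ± 0.17). Btg2, an antiproliferative gene of the p53 response, read 9.0, 9.39 and 9.79 against 10.30, 9.85 and 10.19 (0.72 ± 0.22). With each array left out in turn the count of 8 ran from 4, without Cre 3 or WNT4 1, to 12, without WNT4 2, and with the replicate block it was 12. Of all genes 2.94%, 2.15%, 10.3% and 8.85% passed as higher in these fits, in that order.

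The ER genes named here include luminal chaperones with their partners and genes of degradation. Hspa5 read 13.16, 13.30 and 13.27 on Cre arrays 1 to 3, 15.17, 13.75 and 14.56 on WNT4 arrays 1 to 3, and 13.00, 13.32 and 13.52 with GFP. WNT4 1 stood highest, WNT4 3 next and WNT4 2 nearest to Cre, and the groups did not overlap. The difference was 1.25 ± 0.34, or 2.38-fold (unadjusted p = 0.0091). The 2 other probe sets of Hspa5 gave 0.25 and 1.34. Creld2 read 10.07, 9.70 and 9.38 on the Cre arrays and 13.29, 10.71 and 11.92 on the WNT4 arrays, a difference of 2.26 ± 0.62. Sdf2l1, a cofactor that holds chaperone complexes together in the ER, read 7.85, 7.52 and 7.90 against 11.23, 8.45 and 10.18 (2.20 ± 0.66). Manf, a small secreted ER stress protein, read 11.56, 11.21 and 11.28 against 13.84, 11.94 and 12.74 (1.49 ± 0.45). The same order of the WNT4 arrays held in each of these 4. Degradation genes followed it. Herpud1, a membrane protein that brings substrates to the degradation complex, read 9.51, 9.18 and 9.30 against 12.67, 10.44 and 11.38. Its difference of 2.17 ± 0.52 was the one with the lowest p of the list (0.0055), and its other probe set gave 1.71. Sel1l, the partner of the ligase Syvn1, read 9.29, 9.49 and 9.81 against 11.47, 9.92 and 11.04 (1.28 ± 0.40), although its 4 other probe sets gave -0.10 to 0.94. Syvn1 itself was 0.96 ± 0.35 higher and Pdia6 1.18 ± 0.39 higher, both chosen after their values were seen for their promoters. Ero1b read 8.08, 8.50 and 8.43 against 10.36, 8.80 and 9.54 (1.23 ± 0.38, also chosen after its values were seen).

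Of the 29 ER genes, 16 passed as higher at an unadjusted p under 0.05 and 0 as lower, and 15 lay wholly higher. All 29 had a mean of at least 6. The share that passed as higher was 55.2%, against 4.97% of all genes and 8.24% of those with such a mean. The share wholly higher was 51.7%, against 6.57% and 9.76%. Relative to the Cre mean, the list mean was 1.60 on WNT4 1, 0.25 on WNT4 2 and 1.00 on WNT4 3, against -0.07, -0.01 and 0.08 on the Cre arrays and -0.18, -0.07 and 0.12 with GFP. Cre and GFP arrays were therefore close on this list, and each WNT4 array was above all 6 of them. The median difference was 0.54 without WNT4 1 and 1.25 without WNT4 2. With 1 array left out the count of 16 ran from 9, without Cre 1 or WNT4 3, to 25, without WNT4 2. Of all genes 2.34%, 5.07% and 10.3% passed as higher in these fits, in that order. The count was 2 without Cre 3 and WNT4 3 together (6.9%, against 2.58% of all genes), where the median was still 0.88. WNT4 1 and WNT4 3 also had the largest difference between the 3′ and 5′ control probe sets of actin, 1.38 and 1.30 log2 units, against 0.98 on WNT4 2, 1.05 to 1.13 on the Cre arrays and 1.08 to 1.28 with GFP. The same difference for the GAPDH controls was 2.17, 1.88 and 1.36 on WNT4 arrays 1 to 3, 1.79, 1.86 and 0.95 on Cre arrays 1 to 3, and 1.77 to 1.80 with GFP. By GAPDH, WNT4 1 was thus the highest array, but WNT4 3 was below WNT4 2, Cre 1, Cre 2 and all GFP arrays. Their part in the result was not tested.

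**Figure D2:**
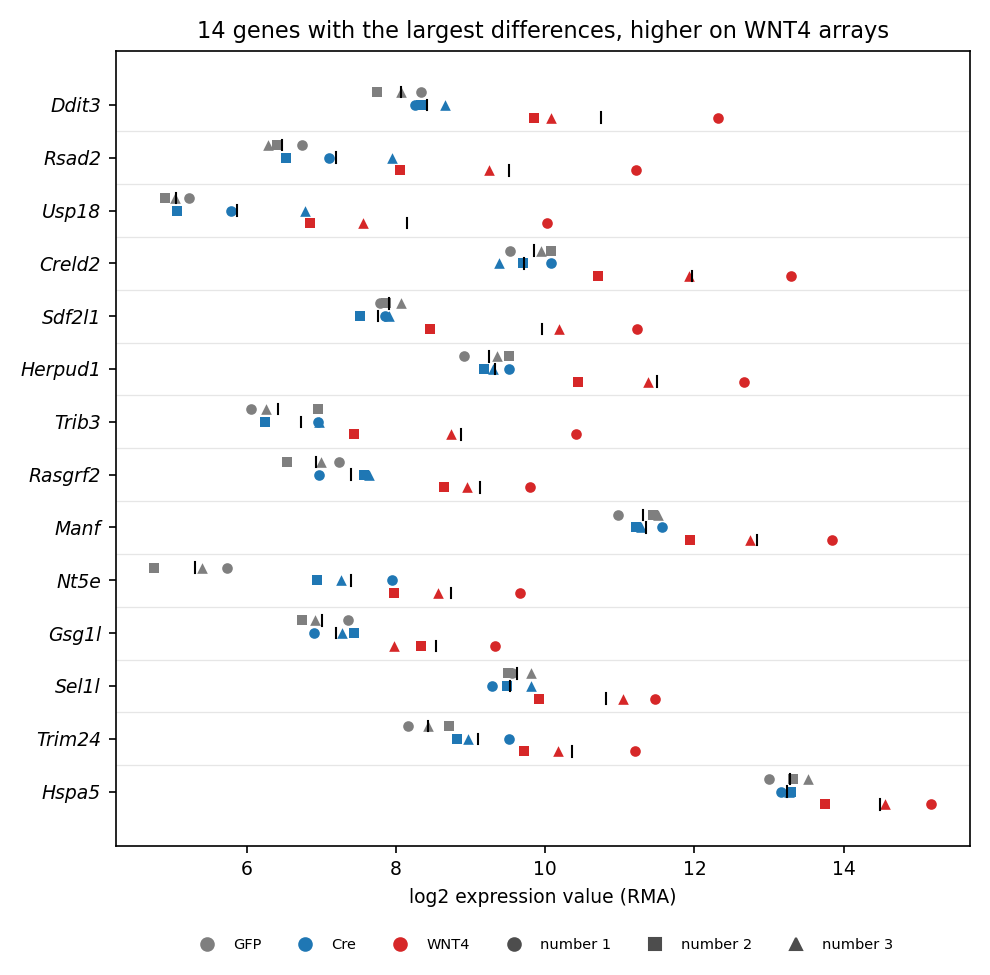
Log2 expression values of the 14 genes with the largest higher differences on the arrays labelled WNT4; each point is 1 array, colours stand for GFP, Cre and WNT4, shapes for the replicate number, and short black bars for group means. WNT4 1 (red circle) is the highest array for all 14, and for 13 the red square of WNT4 2 is the nearest to the Cre arrays.

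Of the 14 genes with the largest higher differences, 6 were on the ER list. Their WNT4 values were in the order WNT4 1, WNT4 3, WNT4 2 for 13 of the 14, and the GFP mean was nearer to the Cre mean than to the WNT4 mean for all 14. Besides Creld2, Sdf2l1, Herpud1, Manf, Sel1l and Hspa5, the 14 held Ddit3 and Trib3 of the ATF4 and CHOP branch and Rsad2 and Usp18 of the interferon list. The other 4 belonged to no list. Rasgrf2, an exchange factor for Ras and Rac, had one of the lowest p-values, at 6.96, 7.57 and 7.63 on the Cre arrays and 9.80, 8.64 and 8.95 on the WNT4 arrays (difference 1.74 ± 0.33, unadjusted p = 0.0017). Its 2 other probe sets gave 0.02 and 0.06. Trim24, a transcriptional cofactor with a ubiquitin ligase domain, read 9.51, 8.82 and 8.96 against 11.20, 9.71 and 10.17 (1.26 ± 0.39), but its 2 other probe sets gave 0.19 and 0.34. Nt5e, the ecto-enzyme CD73 that makes adenosine, read 7.95, 6.94 and 7.26 against 9.66, 7.97 and 8.56 (1.34 ± 0.47), with GFP far lower at 5.73, 4.76 and 5.40. The 2 other probe sets of Nt5e gave 0.04 and 0.07. Gsg1l, a subunit linked to glutamate receptors, was 1.34 ± 0.35 higher. Of the 6 of these 14 genes with another probe set of mean 6 or more, 4 had one that showed at least 0.5 times the difference: Herpud1, Trib3, Sel1l and Hspa5.

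The ATF4 and CHOP branch ran in parallel, with more spread among the Cre arrays. Of its 29 measured genes, 26 had a difference above 0, with a median of 0.72, and 9 passed as higher at an unadjusted p under 0.05 (31.0%) and 0 as lower. Ddit3, which encodes CHOP, read 8.25, 8.33 and 8.65 on the Cre arrays and 12.31, 9.85 and 10.08 on the WNT4 arrays, a difference of 2.33 ± 0.64, or 5.04-fold. The groups did not overlap, and GFP lay with Cre at 8.34, 7.75 and 8.07. The other probe set of Ddit3, a dimmer one, gave 0.67. Trib3, a pseudokinase that CHOP induces, read 6.95, 6.24 and 6.97 against 10.41, 7.44 and 8.74 (2.15 ± 0.71), and its other probe set gave 2.35. Sars, the seryl-tRNA synthetase, was 0.73 ± 0.20 higher (0.46 after quantile normalization). Atf6, of a branch that acts on chaperone genes but also on this list, was 0.67 ± 0.21 higher. The list mean relative to Cre was 1.47, 0.06 and 0.87 on WNT4 arrays 1 to 3 and 0.22, -0.35 and 0.13 on Cre arrays 1 to 3, so here WNT4 2 lay within the Cre range. In the fit with the replicate block 23 of the 29 passed as higher, against 8.85% of all genes in that fit. With 1 array left out the count of 9 ran from 2, without Cre 2, to 17, without WNT4 2, and was 2 without both arrays numbered 3. Of all genes 4.69%, 10.3% and 2.58% passed as higher in these fits, in that order.

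Other stress lists differed less. The heat shock genes of the cytosol had a median of 0.31 over 19 genes (0.05 after quantile normalization), with 3 higher and 1 lower at an unadjusted p under 0.05. Hspb1, a small heat shock protein, read 10.76, 9.96 and 10.20 in the Cre group and 11.07, 11.12 and 10.90 in the WNT4 group (0.72 ± 0.21). This is one of the genes that was as high on WNT4 2 as on WNT4 1. Hspa1a, the inducible HSP70, was 0.50 ± 0.18 higher. Cryab, a small chaperone of the lens and muscle, was the one lower, at 8.47, 7.70 and 8.49 against 6.80, 7.05 and 8.01 (-0.93 ± 0.37), with the groups overlapping. Of 24 NRF2 antioxidant genes 5 were higher and 0 lower, with a median of 0.38 (0.16 after quantile normalization, with 1 higher). Without WNT4 3 the median was 0.09, with 14 of 24 above 0, and without Cre 2 it was 0.21. Their list mean was high on both arrays numbered 3, at 0.39 on Cre 3 and 0.92 on WNT4 3, against -0.30 to 0.37 on the other 4. With the replicate block 6 heat shock and 11 NRF2 genes passed as higher (31.6% and 45.8%, against 8.85% of all genes). With 1 array left out the ranges were 1 to 8 and 1 to 8, the highest of each being without WNT4 2, where 10.3% of all genes passed as higher.

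Interferon-stimulated genes, which answer viral nucleic acid, had a median difference of 0.70 over 34 genes, with 32 above 0 (0.58 and 31 after quantile normalization). Of these, 6 passed as higher at an unadjusted p under 0.05 (17.6%) and 1 as lower, and 8 lay wholly higher (23.5%). Rsad2, the antiviral enzyme viperin, read 7.10, 6.53 and 7.95 on the Cre arrays and 11.22, 8.05 and 9.25 on the WNT4 arrays (2.31 ± 0.81, unadjusted p = 0.027). Its GFP values were 6.74, 6.40 and 6.28. Usp18, which removes the interferon-induced tag ISG15 from proteins, read 5.78, 5.06 and 6.78 against 10.02, 6.84 and 7.56 (2.27 ± 0.87), and WNT4 2 exceeded Cre 3 by little. Ifih1, the RNA sensor MDA5, read 7.71, 7.98 and 8.50 against 10.14, 8.66 and 9.06 (1.23 ± 0.40). Dhx58, a related sensor, was 0.59 ± 0.20 higher at a low level. Zbp1, a sensor of nucleic acid, was the 1 lower gene, at 6.14, 6.01 and 6.08 against 5.68, 5.52 and 5.83 (-0.40 ± 0.11). Relative to Cre, the list mean was 1.48, 0.13 and 0.63 on the WNT4 arrays, -0.12, -0.24 and 0.36 on the Cre arrays, and -0.36 to -0.29 with GFP, so that WNT4 2 lay below Cre 3. Without WNT4 1 the median fell to 0.32. With 1 array left out the count of 6 ran from 0, without Cre 1, to 16, without WNT4 2, and the replicate block gave 16. Of all genes 2.34%, 10.3% and 8.85% passed as higher in these fits, in that order.

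Antigen-processing genes of MHC class I, which interferon also induces, had a difference above 0 in 14 of 14 cases, with a median of 0.55 (0.42 after quantile normalization, 14 above 0). Of them 6 passed as higher at an unadjusted p under 0.05 (42.9%) and 5 lay wholly higher (35.7%). Tap1, a subunit of the peptide transporter, read 8.18, 8.19 and 8.29 on the Cre arrays and 9.49, 8.83 and 8.68 on the WNT4 arrays (0.78 ± 0.21). Its GFP arrays were lower, at 7.83, 7.46 and 7.63. Tap2, the other subunit, was 0.48 ± 0.14 higher, and Psmb8, a subunit of the immunoproteasome, 0.62 ± 0.17 higher. On this list all 3 WNT4 arrays (0.81, 0.28 and 0.61) were above all 3 Cre arrays (-0.22, -0.01 and 0.23), and the GFP arrays read -0.28, -0.46 and -0.21. With 1 array left out the count ran from 4 to 9, the 9 being without Cre 3 (64.3%, against 2.94% of all genes). The replicate block gave 10 (71.4%, against 8.85%).

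**Figure D3:**
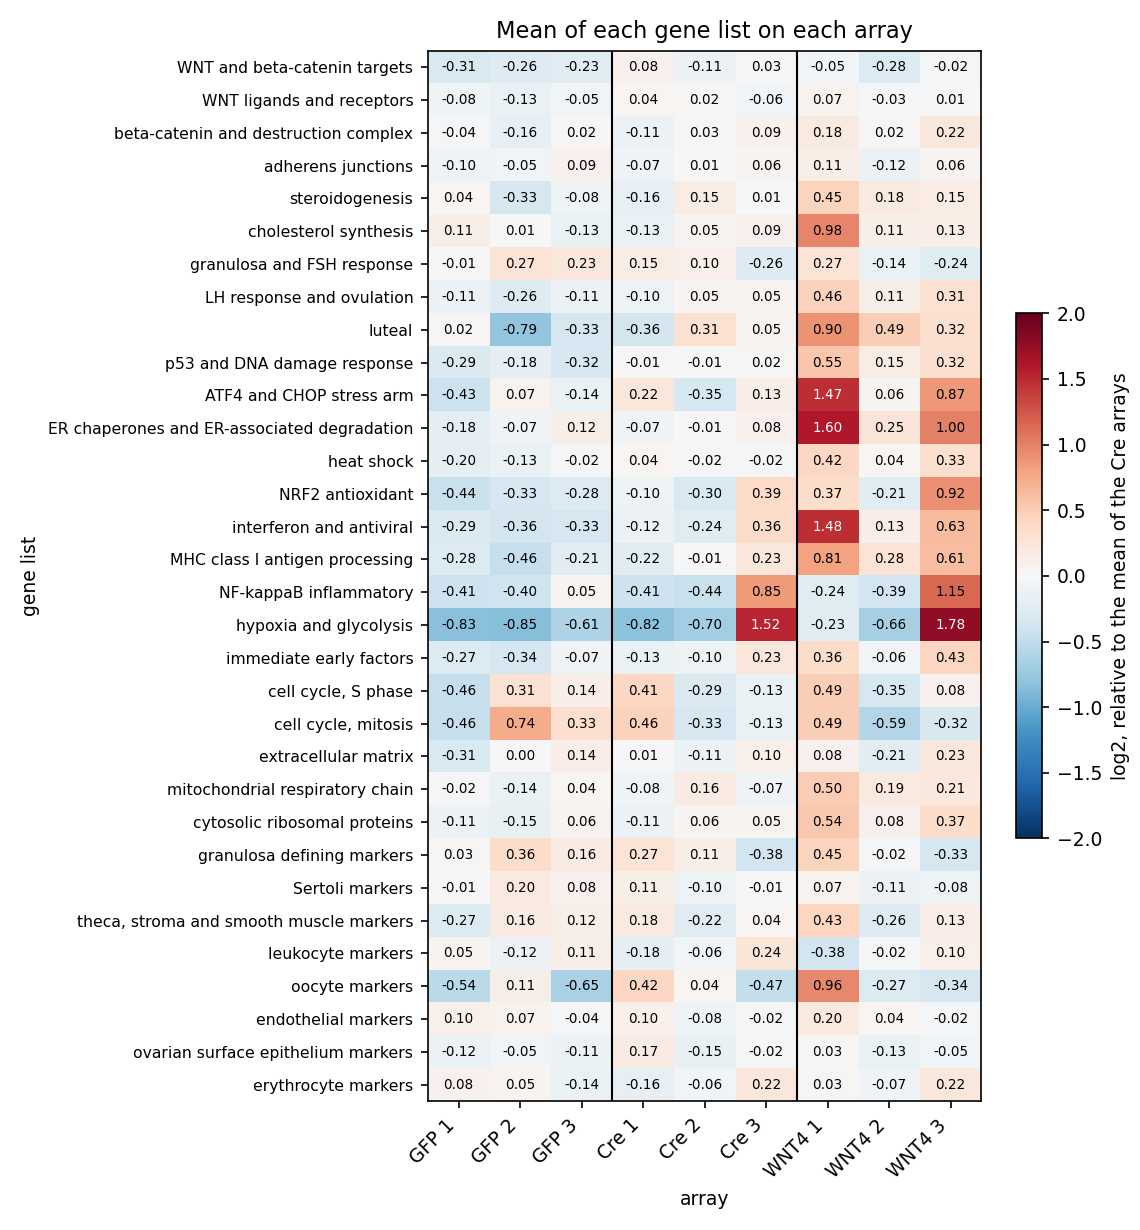
Mean of each gene list on each of the 9 arrays, in log2 units relative to the mean of the 3 Cre arrays, with red for higher and blue for lower; rows are lists and columns arrays. The ER row reads 1.60, 0.25 and 1.00 on the WNT4 arrays, and the hypoxia row is high on Cre 3 (1.52) and WNT4 3 (1.78) alike.

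Genes of luteal function mostly had higher means on the arrays labelled WNT4. Of 14 luteal genes 13 had a difference above 0, with a median of 0.66 (0.39 after quantile normalization), and 5 passed as higher at an unadjusted p under 0.05 (35.7%) and 0 as lower. Those 5 were Star, Cyp11a1, Scarb1, Parm1 and Cdkn1a, so the count shares Cdkn1a with the p53 list. Star, Cyp11a1 and Scarb1 were also on the steroidogenesis list, and Star on that of the response to luteinising hormone. Star, which carries cholesterol into mitochondria, read 7.75, 8.22 and 7.81 on the Cre arrays and 10.24, 8.96 and 8.25 on the WNT4 arrays. The groups did not overlap, and GFP read 7.91, 6.45 and 6.94. The difference was 1.22 ± 0.48, or 2.34-fold (unadjusted p = 0.043), and 0.68 without WNT4 1. Its 2 other probe sets gave 0.97 and 1.80. Cyp11a1, which cuts the cholesterol side chain in the first step to progesterone, read 12.33, 13.65 and 13.26 against 14.48, 13.76 and 13.74 (0.91 ± 0.37, and 0.54 after quantile normalization). Its unadjusted p was 0.049, and 0.066 with the replicate block. Here Cre 2 came close to WNT4 2 and 3. Scarb1, a lipoprotein receptor for cholesterol uptake, read 11.05, 11.51 and 11.63 against 12.60, 11.92 and 11.89 (0.74 ± 0.24, and 0.46 after quantile normalization). Fdx1, which hands electrons to Cyp11a1, read 13.48, 14.03 and 13.96 against 14.84, 14.25 and 14.50 (0.70 ± 0.21, but 0.26 after quantile normalization). Akr1c18, which breaks progesterone down, was the luteal gene that ran the other way (-0.62 ± 0.45) and did not pass. On Cre 1 the luteal list was low, at -0.36 relative to the Cre mean, against 0.31 and 0.05 on Cre 2 and 3, 0.90, 0.49 and 0.32 on the WNT4 arrays, and -0.79 to 0.02 with GFP. Without Cre 1 the luteal count was 2, and without Cre 3 it was 3. The count without any other single array was 4 to 6.

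Of 16 steroidogenesis genes 4 passed as higher at an unadjusted p under 0.05 (25%) and 0 as lower, with a median of 0.18 that fell to 0.02 after quantile normalization. They were Fdx1 and, already counted on the luteal list, Star, Cyp11a1 and Scarb1. All 17 cholesterol synthesis genes had a difference above 0, with a median of 0.42, but only 2 passed, Ebp (0.42 ± 0.16, and 0.22 after quantile normalization) and Srebf2 (0.42 ± 0.17). Ebp is a sterol isomerase and Srebf2 the factor that turns on this pathway. The other probe set of Srebf2 gave 0.07. The cholesterol list mean was 0.98 on WNT4 1, 0.11 on WNT4 2 and 0.13 on WNT4 3, against -0.13 to 0.09 on the Cre arrays, and without WNT4 1 the median was 0.06 with 0 genes passing. The size of the list difference thus rested mainly on WNT4 1, although 14 of the 17 genes stayed above 0 without it (60.1% of all genes were above 0 there). Srebf2 differed from this, with WNT4 3 as its highest array and a difference of 0.45 without WNT4 1. Of 25 genes of the response to luteinising hormone 23 were above 0, with a median of 0.19, and 4 were higher and 0 lower. Star, already counted, was among the 4. Adamts1, a protease of the ovulating follicle, read 9.20, 10.07 and 10.36 against 10.66, 10.44 and 11.09 (0.85 ± 0.33). Timp1, an inhibitor of matrix proteases, read 9.90, 10.47 and 10.47 against 10.83, 11 and 10.80 (0.60 ± 0.17, and 0.38 after quantile normalization), so that WNT4 2 was its highest array. Cebpb, a transcription factor needed for luteal change, was 0.49 ± 0.18 higher (0.31 after quantile normalization) with overlapping groups. It was also on the ATF4 and CHOP list. After quantile normalization 1 gene of this list passed, and with 1 array left out 1 to 3 did, the 1 being without Cre 1.

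Genes of the respiratory chain and of the cytosolic ribosome showed how far a small uniform difference depended on scaling. On the deposited values 33 of 34 respiratory chain genes had a difference above 0, with a median of 0.32, and 14 passed as higher (41.2%). For 27 ribosomal protein genes the median was 0.38 and 13 passed (48.1%). After quantile normalization the medians were 0.07 and -0.02 and the counts 0 and 0. After centring on the 75th percentile they were 0.22 with 8 passing and 0.28 with 10. In the fit with the replicate block 8 of the ribosomal genes passed as higher (29.6%, against 8.85% of all genes). Rpl35, a protein of the large ribosomal subunit, was 0.61 ± 0.13 higher on the deposited values and 0.17 higher after quantile normalization. Rpl19 and Rpsa gave 0.54 ± 0.16 and 0.55 ± 0.17, and 0.14 and 0.07 after it. Cox5b of complex IV gave 0.59 ± 0.16 and 0.14, Uqcrfs1 of complex III 0.43 ± 0.11 and 0.14, and Ndufa1 of complex I 0.45 ± 0.12 and 0.14. These are among the brightest genes of the array, with most values above 12. The ER, ATF4, interferon and antigen-processing medians stayed at 0.42 or more under the same normalization.

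**Figure D4:**
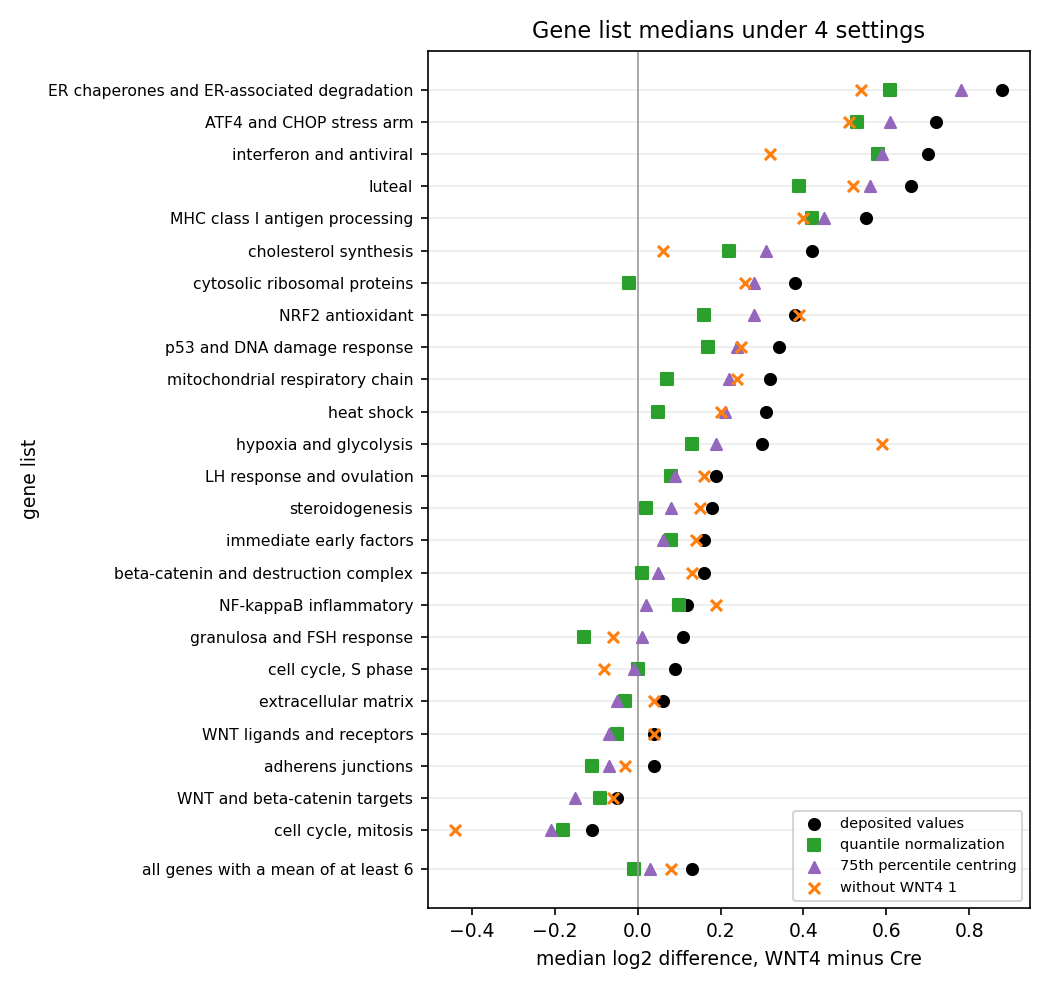
Median log2 difference, WNT4 minus Cre, of each of the 24 pathway lists on the deposited values (circles), after quantile normalization (squares), after centring on the 75th percentile (triangles) and without WNT4 1 (crosses), with all genes of mean 6 or more at the bottom. The ER list is highest on the deposited values at 0.88, and the ribosomal list falls from 0.38 to -0.02 under quantile normalization.

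Targets of WNT and beta-catenin signalling differed in both directions. Of 26 measured genes 8 had a difference above 0 and 18 below, with a median of -0.05, and 1 passed as higher (3.85%) and 2 as lower at an unadjusted p under 0.05. Axin2, the feedback inhibitor that canonical signals raise, read 9.27, 7.94 and 8.47 on the Cre arrays, 8.14, 7.39 and 7.87 on the WNT4 arrays, and 7.42, 6.78 and 7.24 with GFP. It was lower on the WNT4 array of each number, with overlapping groups (-0.76 ± 0.36, unadjusted p = 0.077). With the replicate block its unadjusted p was 0.0028. The 2 lower genes that passed were both ligands of the BMP family. Bmp4 read 8.77, 7.23 and 6.66 against 6.58, 6.23 and 5.99 (-1.29 ± 0.52), with GFP at 6.35, 7.13 and 6.58, so that Cre 1 was the array well above GFP. Bmp2 read 9.51, 9.84 and 8.81 against 8.85, 8.45 and 8.27 (-0.86 ± 0.29), with GFP at 9.31, 10.01 and 10.04, at the level of Cre or higher. Bmpr1b, a BMP receptor of granulosa cells, read 10.09, 10.31 and 9.40 against 9.40, 9.24 and 9.07, with GFP at 10.25, 10.88 and 11.26. Its difference was -0.70 ± 0.24, and its 2 other probe sets gave -0.70 and -0.57. Apcdd1, a membrane inhibitor of WNT signals, was the 1 target that passed as higher (0.43 ± 0.15, and 0.25 after quantile normalization), and its 5 other probe sets gave -0.06 to 0.68. The target promoters held the TCF/LEF letters CTTTGAT in 2 of 21 (9.52%, against 3.73% of all promoters) and CTTTGTT in 2 of 21 (9.52%, against 5.85%), on either strand.

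Among 33 WNT ligands and receptors 3 passed as higher (9.09%) and 2 as lower at an unadjusted p under 0.05, with a median of 0.04. Of all genes 4.97% passed as higher and 1.1% as lower, and of those with a mean of at least 6, 8.24% and 1.09%. The shares higher on this list and the next 2 were near these. One of the 2 lower ligands and receptors was Wnt4. Wnt10b, another ligand, read 8.08, 8.66 and 8.69 on the Cre arrays and 9.10, 9.08 and 9.29 on the WNT4 arrays (0.68 ± 0.18), with the 3 WNT4 arrays close together and GFP at 8.93, 7.98 and 8.64. Ryk, a WNT receptor of the tyrosine kinase class, was 0.36 ± 0.12 higher (0.18 after quantile normalization), and its 2 other probe sets gave -0.03 and 0.09. Of 27 genes of beta-catenin and its destruction complex 2 were higher (7.41%) and 0 lower, with a median of 0.16 (0.01 after quantile normalization). They were Csnk1d, a casein kinase (0.39 ± 0.11, and 0.09 after quantile normalization), and Axin1, the scaffold of the complex (0.47 ± 0.15, and 0.31 after it). The 4 other probe sets of Csnk1d gave -0.35 to 0.39. Of 18 adherens junction genes 1 was higher (5.56%) and 1 lower. Ctnna2, an alpha-catenin that ties cadherins to actin, read 8.58, 8.93 and 8.32 against 7.43, 8.12 and 7.79 (-0.83 ± 0.22), with GFP highest at 8.74, 9.07 and 9.30. F11r, a tight junction protein, was 0.44 ± 0.13 higher (0.14 after quantile normalization), and its other probe set gave -0.03.

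Genes of the growing follicle were led by Igf1. Insulin-like growth factor 1, which amplifies the answer to follicle-stimulating hormone, read 11.45, 10.53 and 10.69 on the Cre arrays and 9.22, 9.20 and 10.01 on the WNT4 arrays, against 10.75, 11.66 and 11.57 with GFP. The groups did not overlap, and the WNT4 arrays were the lowest of the 9. The difference was -1.42 ± 0.32, or 2.67-fold lower (unadjusted p = 0.0038), and -1.29 without WNT4 1. All 3 other probe sets of Igf1 agreed in direction and size, at -1.51 to -1.15. Of the 23 genes of granulosa identity and hormone response 2 passed as lower, Igf1 and Bmpr1b, and 0 as higher, and the list median was 0.11. Esr2, the oestrogen receptor of granulosa cells, read 7.26, 7.32 and 6.15 against 6.66, 6.23 and 6.0 (-0.61 ± 0.35, unadjusted p = 0.13). Its unadjusted p was 0.021 with the replicate block, where 4 genes of the list passed as lower. Of the 13 defining granulosa markers 12 had a mean of at least 6, so markers of the labelled cell type were present, and 0 passed in either direction. Foxl2, the factor that keeps granulosa identity, lay between 10.09 and 10.41 on all 6 arrays (-0.04 ± 0.11). Inha, the inhibin subunit, lay between 12.87 and 13.96 (0.21 ± 0.29), and Fshr, the receptor for follicle-stimulating hormone, between 7.11 and 8.27 (0.15 ± 0.32). Amh, anti-Müllerian hormone, was the 1 marker below 6, at 5.84 to 5.99 (0.01 ± 0.08).

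Of 31 extracellular matrix genes 1 passed as higher and 3 as lower at an unadjusted p under 0.05, with a median of 0.06. Sparc, a collagen-binding matrix protein, read 12.08, 12.39 and 12.26 on the Cre arrays and 12.92, 12.62 and 12.80 on the WNT4 arrays (0.54 ± 0.12, and 0.24 after quantile normalization). Its 2 other probe sets gave -0.37 and 0.45. Lamb1, a laminin chain of the follicle's basement membrane, read 10.85, 10.93 and 10.98 against 10.50, 10.25 and 10.65 (-0.46 ± 0.12). The 3 other probe sets of Lamb1 gave -0.57 to 0.02. Lama5, another laminin chain, was -0.30 ± 0.12, and its 2 other, dimmer probe sets gave -0.04 and 0.02. Thbs1, an inhibitor of vessel growth, read 11.48, 11.34 and 11.05 against 9.50, 9.92 and 11.24 (-1.07 ± 0.43), so that the group's own array WNT4 3 lay within the Cre range. Of 28 immediate early factors 2 passed as higher, among them Zfp36, an RNA-binding protein that shortens message life (0.46 ± 0.13). Klf4, a factor of growth arrest, had a larger difference with more spread, at 9.05, 8.49 and 9.78 against 11.38, 9.24 and 10.51 (1.27 ± 0.58), and GFP lay below both groups at 8.08, 7.55 and 7.84. With the replicate block its unadjusted p was 0.011 against 0.07 without. In that fit 8 immediate early genes and 5 matrix genes passed as higher (28.6% and 16.1%, against 8.85% of all genes).

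**Figure D5:**
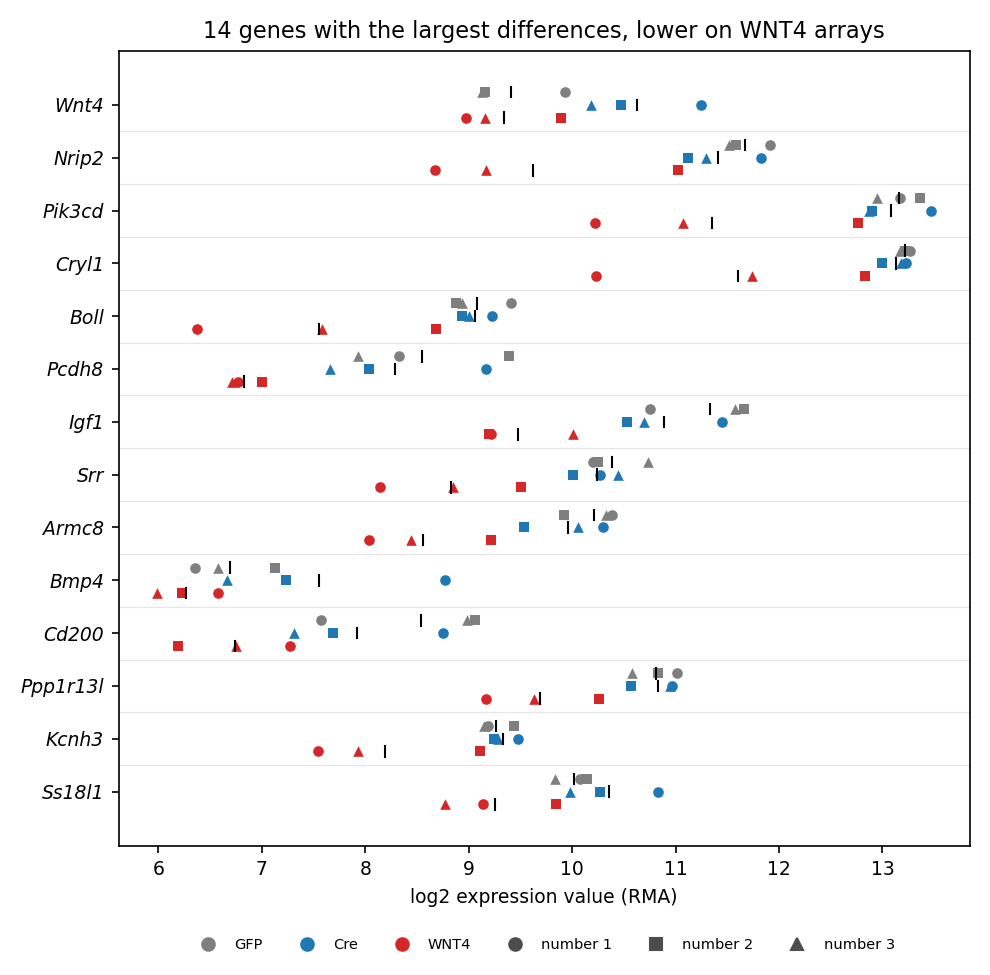
Log2 expression values of the 14 genes with the largest lower differences on the arrays labelled WNT4; points are arrays, colours treatments, shapes replicate numbers and black bars group means. Pik3cd, Cryl1 and Boll have WNT4 1 far to the left and WNT4 2 beside the Cre and GFP arrays, while the 3 WNT4 arrays of Pcdh8 stand together, left of all other arrays.

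The 14 genes with the largest lower differences had 2 shapes. Pcdh8, a protocadherin of cell adhesion, read 9.17, 8.04 and 7.66 on the Cre arrays and 6.77, 7.0 and 6.71 on the WNT4 arrays (-1.46 ± 0.38), and its other probe set gave -1.15. Cd200, a surface protein that calms immune cells, read 8.75, 7.69 and 7.31 against 7.27, 6.19 and 6.75 (-1.18 ± 0.43). With Igf1 and Bmp4 they were genes for which WNT4 1 was not the lowest array by far. A further 8 followed the order WNT4 1, WNT4 3, WNT4 2, lowest first. Nrip2, a corepressor of nuclear receptors, read 11.83, 11.12 and 11.29 on the Cre arrays, 8.67, 11.02 and 9.17 on the WNT4 arrays, and 11.91, 11.58 and 11.52 with GFP. WNT4 2 was thus just below the lowest Cre array and WNT4 1 far below. The fitted difference was -1.79 ± 0.60, yet the 2 other probe sets of Nrip2 gave -0.05 and 0.20. Pik3cd, a catalytic subunit of phosphoinositide 3-kinase, read 13.47, 12.90 and 12.87 against 10.22, 12.76 and 11.07 (-1.73 ± 0.62), and its 5 other probe sets gave -0.21 to 0.15. Cryl1, a lens crystallin-like dehydrogenase, read 13.23, 13.00 and 13.18 against 10.23, 12.83 and 11.74 (-1.54 ± 0.61), with the others at -0.66 to -0.28. Boll, a germ cell RNA-binding protein, read 9.23, 8.94 and 9.0 against 6.37, 8.68 and 7.58 (-1.51 ± 0.54), with the others at 0.01 to 0.09. Srr, serine racemase, at -1.41 ± 0.34, Armc8, of an E3 ligase complex, at -1.40 ± 0.34, Ppp1r13l, an inhibitor of p53, at -1.14 ± 0.28, and Kcnh3, a potassium channel, at -1.14 ± 0.39, had the same order. The other probe sets of Srr gave -0.16 to 0.26, those of Armc8 0.04 to 0.36 and those of Ppp1r13l -0.15 to -0.04. One of Kcnh3 gave -1.49 and one 0.09. Ss18l1, a chromatin remodelling subunit of neurons, had WNT4 3 lowest (-1.11 ± 0.33), and its other probe set gave 0.08. In all, 9 of the 14, Wnt4 among them, had the order WNT4 1, 3, 2. Of the 11 with another probe set of mean 6 or more, 3 had one that showed at least 0.5 times the difference, namely Pcdh8, Igf1 and Kcnh3. For the other 8, the gene's remaining probe sets of that brightness showed less than 0.5 times the difference. Fen1, a DNA repair nuclease on the S phase list, and Laptm5, a leukocyte membrane protein, showed that shape too. Laptm5 read 10.90, 10.17 and 10.61 against 6.98, 10.22 and 8.76, and its 4 other probe sets gave -0.11 to 0.15.

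Lists that followed the replicate number rather than the label were those of hypoxia and of NF-kappaB. Of 36 genes of hypoxia and glycolysis 0 passed in either direction at an unadjusted p under 0.05. Their mean relative to Cre was 1.52 on Cre 3 and 1.78 on WNT4 3, against -0.82, -0.70, -0.23 and -0.66 on Cre 1, Cre 2, WNT4 1 and WNT4 2, and -0.85 to -0.61 with GFP. Vegfa, the vessel growth factor that low oxygen induces, read 7.25, 7.43 and 10.47 on the Cre arrays and 9.17, 7.43 and 10.65 on the WNT4 arrays, and 6.83, 7.14 and 7.14 with GFP. The difference of 0.70 ± 1.11 was smaller than its error. Pkm, the glycolytic pyruvate kinase, read 11.67, 12.13 and 13.30 against 12.55, 12.31 and 13.98 (0.58 ± 0.57), higher on the WNT4 array of each number (unadjusted p = 0.34, and 0.012 with the replicate block). With the replicate block 15 of the 36 passed as higher (41.7%, against 8.85% of all genes). Without both arrays numbered 3 the count was 6 (16.7%, against 2.58%). The core letters of the hypoxia response element, ACGTG, were in 26 of 50 promoters of this list (52.0%), against 19.6% of all promoters. Of 33 NF-kappaB genes 0 passed, with list means of 0.85 on Cre 3 and 1.15 on WNT4 3 against -0.44 to -0.24 on the other 4. With the replicate block 4 passed as higher (12.1%, against 8.85% of all genes). What set the arrays numbered 3 apart was not tested.

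Genes of the cell cycle varied between the replicate numbers. Of 29 S phase genes 0 passed as higher and 1 as lower (Fen1, by the probe set described), and of 29 mitosis genes 0 passed in either direction, with medians of 0.09 and -0.11. The mitosis list mean was 0.46, -0.33 and -0.13 on Cre arrays 1 to 3 and 0.49, -0.59 and -0.32 on WNT4 arrays 1 to 3, so that arrays numbered 1 were high and those numbered 2 low in both groups. Without WNT4 1 its median was -0.44. Within the numbered pairs 10 of the 29 mitosis genes were lower on the WNT4 array of all 3 and 0 higher. With the replicate block 4 mitosis genes passed as lower and 0 as higher. In that fit 2 S phase genes passed as lower and 3 as higher (10.3%, against 8.85% of all genes). Of all 18193 genes 386 passed as lower there. Cenpe, a kinesin of the kinetochore, read 6.49, 6.07 and 6.21 against 6.21, 5.70 and 5.73 (-0.38 ± 0.18, unadjusted p = 0.079, and 0.011 with the replicate block).

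Markers of other cells had few genes passing in either direction, and some were high on WNT4 1. Of the 7 other marker lists, those of Sertoli cells, of theca with stroma and smooth muscle, of endothelium, of ovarian surface epithelium and of erythrocytes had 0 genes passing in either direction, with medians of -0.05 to 0.06. A mean of at least 6 was reached by 6 of 12 Sertoli markers, 9 of 19 of theca, stroma and smooth muscle, 4 of 16 endothelial, 7 of 16 epithelial, 1 of 5 erythrocyte, 9 of 23 leukocyte and 12 of 18 oocyte markers. The leukocyte list had 1 lower gene of 23 (Laptm5, by the probe set described), and the oocyte list 1 higher of 18. This was Sohlh1, a germ cell transcription factor (0.26 ± 0.10, unadjusted p = 0.036 in limma, and 0.072 with the replicate block). It was dim, at 5.06 to 5.55 on the 6 arrays. Oocyte markers had a mean level of 7.69 on WNT4 1 and 7.16 on Cre 1, against 6.27 to 6.78 on the other 4 and 6.09 to 6.84 with GFP. The mean level of the theca, stroma and smooth muscle list was 7.31 on WNT4 1 and 6.62 to 7.06 on the other 5. Without WNT4 1 the median difference of the oocyte list was -0.34. Dcn, a proteoglycan of stromal cells, read 9.50 on WNT4 1 and 6.41 to 7.10 on the other 5 arrays, and Lum, another, read 7.33 there and 4.65 to 4.81 on the others. Other members of that list ran differently. Tagln, an actin-binding protein of smooth muscle, read 8.53 on WNT4 1, the lowest of the 6, and 11.15 on WNT4 3, the highest, against 8.71 to 10.70 on the Cre arrays. Col1a1, a collagen chain, was lowest on WNT4 1 at 5.73, and Col1a2, another, read 9.70 on both WNT4 1 and WNT4 3, against 8.25 to 9.03 on the Cre arrays. Of the 9 markers of that list with a mean of at least 6, WNT4 1 was the highest of the 6 arrays for 6 and the lowest for 3, and WNT4 3 was the highest for 2 and the lowest for 0. Of the 12 such oocyte markers, WNT4 1 was the highest for 12, and WNT4 3 was the highest for 0 and the lowest for 3. Being high on WNT4 1 was not particular to markers of other cells. Of the 12 such granulosa defining markers, WNT4 1 was the highest for 7 and the lowest for 3. Their mean level was 10.71 there, against 9.88 to 10.53 on the other 5 arrays. Leukocyte markers ran the other way, with WNT4 1 the highest for 0 of 9 and the lowest for 5. The part of these markers in the differences described above was not tested.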

How the data were processed

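Granulosa cell RNA was measured on Affymetrix mouse arrays, whose titles give each array's group and number. The deposited log2 values were made by the authors with RMA, per the submitters' processing notes, a method that subtracts background, aligns the arrays and condenses each probe set to 1 value. Its version, the probe set coordinates and their genome build are not given in the sources used here, and no array scans were used. Of 45101 probe sets 64 Affymetrix controls were left out. Of the 45037 tested, 34945 had 1 gene symbol in the platform annotation, 932 several and 9160 none, and 34741 symbols were brought up to date by Entrez ID through a RefSeq table (GRCm38.p6). No pair of arrays shared more than 4.05% of equal values.

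The 6 arrays were fitted with limma 3.58.1 in R 4.3.3 (lmFit, eBayes, no covariate, 4 residual and 2.31 prior degrees of freedom, two-sided, Benjamini-Hochberg over all 45037). An exact permutation test of 3 arrays against 3 cannot go below p = 0.1. In a simulation of 6 arrays, 79 of 100 probe sets changed by log2 1 and 95 of 100 changed by log2 2 were recovered among 45037, with 9 unchanged ones called. Its noise was normal and independent between arrays, and each change was the same on all 3 WNT4 arrays. It held no difference between replicate numbers, which took 57.9% of the measured variance. These shares are therefore not the power of the measured comparison. Errors are standard errors of the fit. Genes were read from their single-symbol probe set with the highest mean, and some list genes are not analysed here, among them Cyp19a1 and Lhcgr.

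Same-numbered Cre and WNT4 arrays deviated from their group means together, with correlations of 0.21, 0.24 and 0.77, all over 0.1. The numbers were therefore taken to pair the arrays, a reading of the data that no label states. Cre 1 with WNT4 2 gave 0.28 and Cre 2 with WNT4 1 gave 0.32, so numbers 1 and 2 are not told apart by this check.

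The members, the 24 pathway and 8 marker lists and the named genes were chosen with earlier results of these data known. Named were all probe sets of Wnt4 and Ctnnb1, up to 14 genes higher and 14 lower by size (mean at least 6, unadjusted p under 0.05, groups not overlapping), per list the up to 3 members of lowest p and the 1 furthest against its median, and a fixed set of ovarian, stromal and earlier called genes. Exceptions are marked where they are named. Alternatives were the replicate block, all 9 arrays, quantile, median and 75th percentile scaling, a mean of at least 6, an intensity trend, array weights, an adjusted p under 0.1, a gene's brightest probe set or the mean over its probe sets, and fits with arrays left out. Promoter sequences came from RefSeq.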

Additional observations from a re-analysis of the deposited data

How the results depend on the processing

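In every setting tried 0 probe sets were called with limma at an adjusted p under 0.05 or 0.1, with 2149 at an unadjusted p under 0.05 on the deposited values. That count was 3707 with the replicate block, 1016 of 18620 probe sets averaging 6 or more, 960 with 1 probe set per gene, 1202 to 4150 with 1 array left out (the highest without WNT4 2, where the lowest adjusted p was 0.311), and 1393 without Cre 3 and WNT4 3. The last 3 kinds of setting test fewer features or fewer arrays. The count of 3706 probe sets whose groups did not overlap was 2115 with a mean of at least 6, 1633 with 1 probe set per gene, 6642 to 10140 with 1 array left out and 12716 without both arrays numbered 3, where fewer arrays have to be parted. Its split was 2422 higher to 1284 lower on the deposited values, 2024 to 1890 after quantile normalization and 1339 to 3324 after centring on the 75th percentile. Other settings kept both counts within 1.5 times. Of 1595 values for 100 named genes 1584 kept their direction. The 11 others belonged to 7 genes with differences near 0 or resting on 1 array, and their cause was not tested. Amh was -0.09 after 75th percentile centring and -0.02 without Cre 2 or WNT4 1, and Inha was -0.14 after quantile normalization. With 1 array left out, Foxl2 ranged from -0.11 (without WNT4 3) to 0.03 (without WNT4 1), Inha from -0.06 to 0.48, Fshr from -0.09 to 0.49, Dcn from -0.24 to 1.29 and Lum from -0.06 to 1.28, these 4 lowest without WNT4 1 and highest without WNT4 3. The Vegfa difference ranged from -0.08 (without WNT4 3) to 1.75 (without Cre 3). Signal over background could not be judged, since no detection values were used.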
